A study of Mus musculus with 24 samples.

Results

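The comparison described here is that of Ctcf-deleted with Ctcf-floxed mouse uteri after an injection of vehicle alone, across all expressed genes. Its members were taken from the genotype and treatment labels and are 16 of the 24 libraries of the series, 8 of each genotype. The 8 libraries of progesterone-treated uteri were used only for the choice of expressed genes and the estimate of spread. The knockout animals were labelled PgreCre+;Ctcf-f/f (cKO), which combines 2 floxed Ctcf alleles with a Cre recombinase driven from the progesterone receptor locus, and the floxed animals were Cre-negative littermates with 2 floxed Ctcf alleles. All were female C57bl/6 mice of 21 days that received 0.05 ml of sesame oil under the skin, and the uterus was taken 6 h later. Cre was present only in the knockouts, so the loss of Ctcf and the Cre allele itself cannot be told apart. Whole uterus was sequenced, so that for any gene fewer cells of a type and less RNA per cell cannot be told apart. The labels do not say whether each library came from a separate animal, and the p-values measure the spread between these libraries. Floxed libraries 1a and 1b and knockout libraries 11a and 11b carry like numbers, with 1 of each pair in each batch, and whether the libraries of a pair share an animal is not stated. The SD of the log2 difference over genes was 0.453 within the floxed pair, against 0.285 to 0.585 in the 15 other floxed pairs across the batches, and 0.375 within the knockout pair, against 0.322 to 0.534.

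CTCF is a zinc finger protein that binds DNA in one orientation, stops the cohesin ring as it extrudes chromatin loops and so sets the borders between loops. Bound close to a gene's start it can also raise transcription of that gene, and at imprinted loci it acts as an insulator between a gene and its enhancer. In the uterus the Pgr promoter is active in epithelium, stroma and smooth muscle, and at weaning age the glands are still growing out from the luminal epithelium.

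The libraries held an estimated 29890000 to 100600000 reads, worked out from the value that 1 read adds to a gene. They fell into 2 labelled library batches: a mixed batch with 4 vehicle libraries of each genotype next to the progesterone libraries, and a vehicle-only batch with 4 of each genotype. Depth in the mixed batch was higher, with medians of 91530000 reads (floxed) and 78420000 reads (knockout), against 50280000 and 44340000 reads in the vehicle-only batch. The first principal component of the 16 libraries held 35.9% of the variance and separated every knockout from every floxed library. Knockout libraries 9 and 12 and floxed library 3 carried the highest sums of squamous or oviduct markers, and counts of a list without these 3 libraries are given where those in either direction moved by over 1.5 times, and for some other lists.

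Ctcf RNA was present at 23, 25.9 and 30.6 RPKM (reads per kilobase of gene, scaled to the size of the library; lowest, median and highest of 8 libraries) in floxed uteri and at 10.1, 11.6 and 13.1 RPKM in knockout uteri. No knockout library reached the lowest floxed one. The knockout mean of 11.4 ± 1.11 RPKM (SD, n = 8) was 44.2% of the floxed mean of 25.9 ± 2.36 (exact permutation test, two-sided, p = 0.000155, the smallest that 12870 regroupings allow). The remaining transcript was 46.3% in the mixed and 42.2% in the vehicle-only batch. RNA of unrecombined cells and RNA that still holds the exons outside the floxed part were not separated by this measure.

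Of the 18 genes for CTCF, cohesin and other loop factors that were tested, 3 rose and 1, Ctcf, fell (16.7% and 5.56%). The share of all 14284 tested genes called in either direction was 24.6% (13.1% higher and 11.5% lower in knockouts; limma, Benjamini-Hochberg adjusted p under 0.05). Stag1, the cohesin subunit of CTCF-anchored loops and domain borders, lay at 16.3, 17.5 and 19.4 RPKM in floxed and at 23.1, 24.8 and 25.8 RPKM in knockout libraries. Its log2 fold change was 0.47 (SE 0.05, limma adjusted p = 1.47e-07), and it was called in each batch alone. Stag2, its paralog, rose by less (0.25, SE 0.06, limma adjusted p = 0.00257) with overlapping libraries. Hdac8, which deacetylates the cohesin subunit SMC3, rose from a median of 4.08 to 5.84 RPKM (0.51, SE 0.12, limma adjusted p = 0.00263). Rad21 (0.12, SE 0.09) and Smc1a (-0.05, SE 0.08), 2 core subunits of the ring, did not pass the test.

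**Figure D1:**
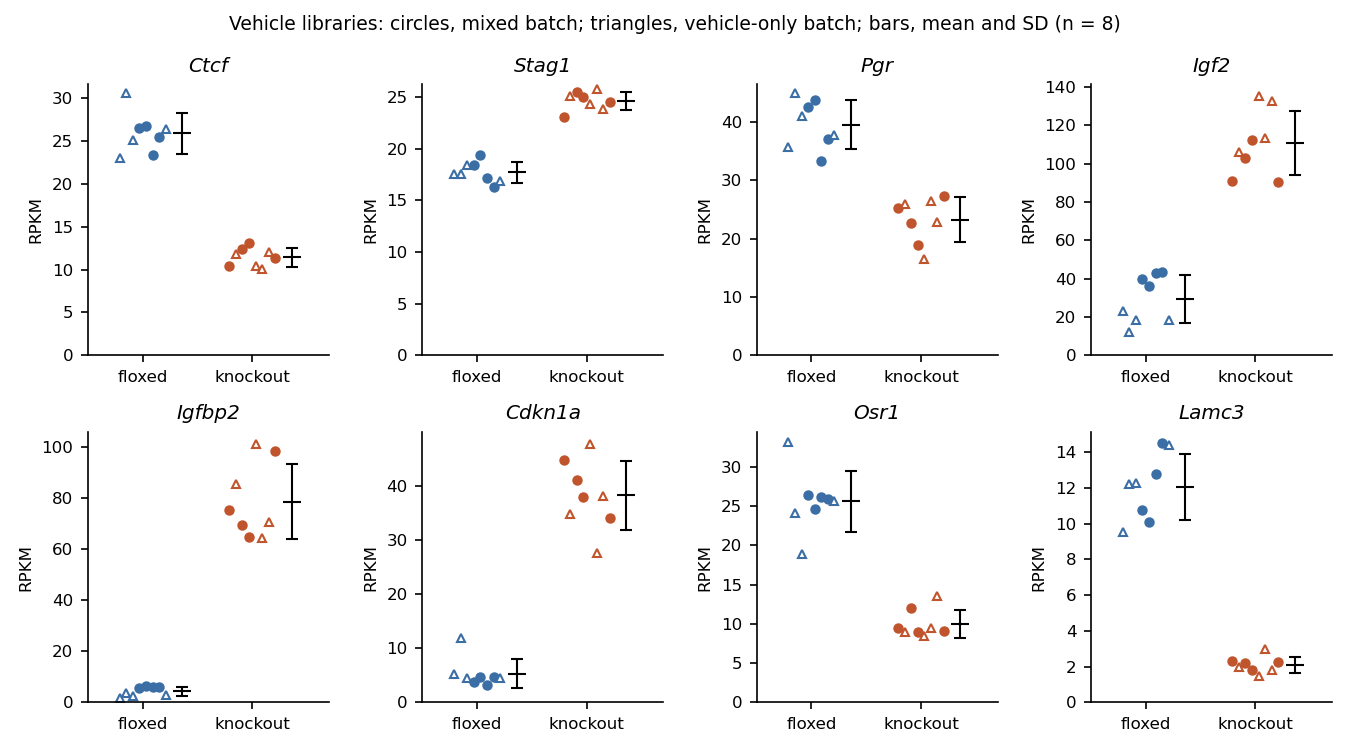
RPKM of 8 genes in the 16 vehicle libraries by genotype, with circles for the mixed batch, open triangles for the vehicle-only batch and bars for the mean and SD of 8 libraries. Floxed and knockout libraries did not overlap in any of the 8 panels; Ctcf, Pgr, Osr1 and Lamc3 were lower and Stag1, Igf2, Igfbp2 and Cdkn1a higher in knockouts.

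Many genes differed between the genotypes by a small amount and few by a large one. At an adjusted p under 0.05, 1878 genes rose and 1638 fell, and 66.2% of the calls were smaller than 1.5-fold. Changes reached 2-fold for 274 of the higher and 169 of the lower genes and 4-fold for 46 and 26. After quantile normalization the split turned to 1883 higher and 2104 lower, from 53.4% to 47.2% higher, while 95.6% of the calls were kept. Groups did not overlap for 1204 genes (8.43%): all knockouts were above all floxed libraries for 685 genes (4.8%) and below them for 519 (3.63%). Without knockout libraries 9 and 12 and floxed library 3, 1516 genes were higher and 1151 lower.

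The 2 batches share no library, apart from the open question of the paired numbers, and were also compared separately, 4 with 4. The mixed batch alone called 3424 genes (24%) and the shallower vehicle-only batch 1178 (8.25%). Both called 884 genes in the same direction (6.19% of those tested), 515 higher and 369 lower, which is 25.8% of the mixed-batch and 75% of the vehicle-only calls. Npas2, a circadian transcription factor, was the 1 gene called in both with opposite signs, at a log2 fold change of 0.86 in the mixed and -1.13 in the vehicle-only batch. Over all tested genes the fold changes of the batches had a Pearson r of 0.68 and a Spearman rho of 0.61, a description across genes, which are not independent replicates. A difference of the knockout effect between the batches was called for 53 genes (0.371%) on the log2 scale and for 2 (0.014%), Npas2 and Mrln, on the RPKM scale. Among genes described further on, the change was larger in the vehicle-only than in the mixed batch for Foxa2 (log2 fold change -2.86 against -1.16), Cldn6 (4.51 against 2.27), Ptgds (5.27 against 1.80), Col22a1 (2.02 against 1.06) and Cdiptos (3.10 against 1.43) and smaller for Hhip (-1.06 against -2.77). Col6a5, below 0 in the vehicle-only floxed libraries alone, and Robo3, near 0 in floxed libraries of both batches, also differed on the log2 scale. Their RPKM differences were 19.6 against 14.1 for Col6a5 and 6.52 against 4.77 for Robo3. These 8 genes kept their direction in both batches, and none of them passed on the RPKM scale. A2m, Igf2, Lgr5, Ptgfr and Arntl also differed on the log2 scale, with values by batch given further on. The vehicle means of both batches are equal for every tested gene, as a shift of each gene by 1 constant per batch would leave them; such a shift keeps RPKM differences within a batch as they were but changes ratios.

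**Figure D2:**
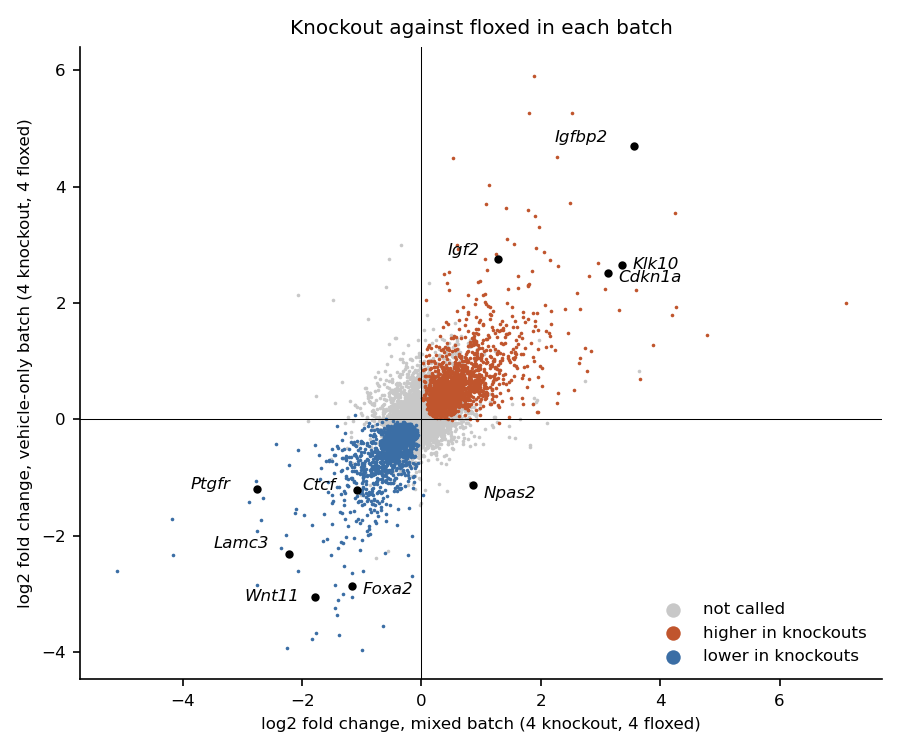
Log2 fold change (knockout over floxed) of 14284 genes in the mixed batch (horizontal) and in the vehicle-only batch (vertical), with points coloured by the call over both batches and 10 genes labelled. Of the 3516 called genes 99.8% have the same sign in both batches, and Npas2 lies in the lower right, at 0.86 and -1.13.

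A CTCF motif stood near the start of a larger share of genes that fell than of genes that rose or were not called; these shares are a description, with no test. The search used RefSeq promoter windows (GRCm38.p6) of 250 bases before to 50 bases after the gene start; 11225 tested genes had at least 1 window. The core of the motif (CC, any 3 bases, AG, any 2 bases, GGC, on either strand) was found in 16.6% of 1642 windows of lower genes, in 10.7% of 1821 windows of higher genes and in 12% of 10771 windows of genes not called. In all 32851 windows of the table the share was 8.61%. A stricter form, chosen after the core's result was seen, asks in addition that the third base is not C, the fifth is a pyrimidine, the eighth is a purine and the ninth is not C; each of its matches is also a match to the core. It was found in 5.6% of windows of lower genes, 2.31% of higher and 2.40% of genes not called. For genes lower in both batches the share was 7.28% (26 of 357 windows) and for genes higher in both batches 2.03% (10 of 493). In the table as a whole it was 1.86%.

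The median GC content was 60.7% in windows of lower genes, 60% in those of higher genes and 60.7% in the rest. Among windows at or above the median GC the stricter form was in 7.25% of lower, 3.17% of higher and 2.68% of uncalled genes, and below it in 3.93%, 1.55% and 2.10%. The orientation of the matches differed as well. In lower genes 82.1% of 95 matches ran in the direction of transcription, against 44.2% of 43 in higher genes and 60.1% of 263 in genes not called. Within 100 bases of the start lay 71.6% of the matches of lower genes, 55.8% of those of higher genes and 51.7% of those of uncalled genes. Seen from the motif, 371 tested genes had the stricter form, and 86 of these (23.2%) fell and 42 (11.3%) rose; of the 10854 genes with a window but without it, 11% fell and 12.9% rose. Of the 86 that fell, 80 did so by under 2-fold, as did 1144 of all 1279 lower genes with a window. The stricter form was in 5.75% of windows of genes lower by under 2-fold and in 4.24% of those lower by at least 2-fold. These are matches to letters in a fixed window. Binding of CTCF was not measured.

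The progesterone receptor binds a palindrome, searched as ACA, any 3 bases, TGT on either strand. This was found in 5.42% of windows of lower, 4.94% of higher and 4.09% of uncalled genes. For genes lower by at least 2-fold the share was 10.3% (17 of 165 windows), with a lower median GC content of 55.7%; below the median GC the palindrome was also more frequent in uncalled genes (6.48%) than above it (1.78%). Binding of the receptor was not measured either.

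Of 23 genes that were lower in both batches and held the stricter CTCF form, 22 had no overlap between the groups and lie on a chromosome whose sequence can be printed here, and the 8 with the smallest adjusted p are printed to show the motif in place. Each line gives 60 bases of the RefSeq window on the gene's own strand, with the motif in capitals.

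Wdr41: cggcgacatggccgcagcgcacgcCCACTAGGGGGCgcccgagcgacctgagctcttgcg

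Rabggta: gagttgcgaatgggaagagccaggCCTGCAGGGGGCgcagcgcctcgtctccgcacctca

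Slc35b2: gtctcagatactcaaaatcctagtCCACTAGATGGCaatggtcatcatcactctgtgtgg

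Dennd6b: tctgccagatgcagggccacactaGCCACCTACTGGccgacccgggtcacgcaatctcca

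Lyrm9: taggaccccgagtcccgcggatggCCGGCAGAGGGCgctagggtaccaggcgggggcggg

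Ly6g6d: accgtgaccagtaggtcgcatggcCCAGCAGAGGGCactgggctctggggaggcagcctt

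Gaa: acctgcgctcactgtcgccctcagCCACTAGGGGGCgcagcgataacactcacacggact

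Fam199x: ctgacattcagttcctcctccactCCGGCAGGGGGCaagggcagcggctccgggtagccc

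The stretches lie at chr13:94976287-94976346 (Wdr41, plus strand), chr14:55722281-55722340 (Rabggta, minus), chr17:45563706-45563765 (Slc35b2, plus), chr15:89196619-89196678 (Dennd6b, minus), chr11:78826501-78826560 (Lyrm9, plus), chr17:35078089-35078148 (Ly6g6d, minus), chr11:119267912-119267971 (Gaa, plus) and chrX:137049474-137049533 (Fam199x, plus). In 7 of the 8 the motif reads in the direction of the gene; in Dennd6b it is on the other strand. The first base of the motif lay between 206 bases (Slc35b2) and 27 bases (Gaa) before the start.

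Gaa, the lysosomal acid alpha-glucosidase that degrades glycogen, was at 41.9, 47.9 and 55.0 RPKM in floxed and at 17.0, 26.9 and 32.9 RPKM in knockout libraries, a log2 fold change of -0.92 (SE 0.10, limma adjusted p = 1.78e-07). Slc35b2, the Golgi transporter of the sulfate donor PAPS, went from 26.6, 29.4 and 32.1 to 15.4, 17.6 and 20.4 RPKM (-0.71, SE 0.06). Wdr41, a partner of C9ORF72 at lysosomes, went from 12.1, 13 and 14.2 to 7.20, 8.01 and 9.26 RPKM (-0.64, SE 0.06). Groups did not overlap for any of the 3, which the choice of the printed genes required. Rabggta, the alpha subunit of the enzyme that prenylates Rab proteins, fell from a median of 7.34 to 3.86 RPKM (-0.82, SE 0.07), and Dennd6b, an exchange factor for Rab proteins, from 3.43 to 1.17 RPKM (-1.26, SE 0.11). The other 3 genes were low: Lyrm9 fell from a median of 1.89 to 0.989 RPKM, Fam199x from 2.68 to 1.31 RPKM and Ly6g6d, a lymphocyte antigen 6 family gene, from 1.63 to 0.456 RPKM. All 8 had been chosen for calls in both batches, for no overlap between the groups and for the smallest adjusted p. That the spread in each group was small beside these differences follows from this choice.

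**Figure D3:**
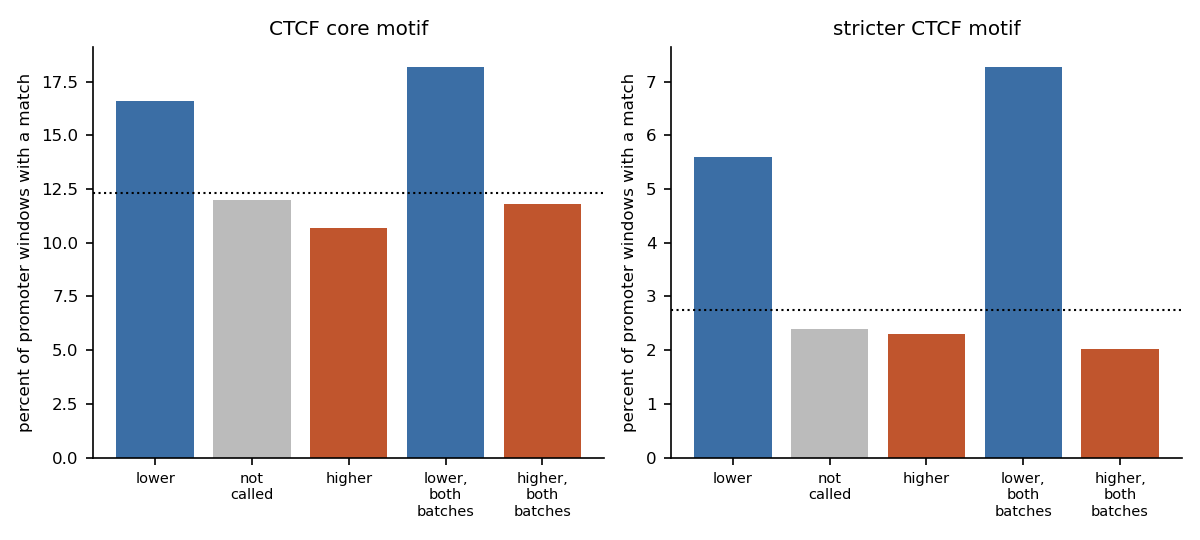
Percent of RefSeq promoter windows with a match to the CTCF core (left) and to its stricter form (right), for genes lower, not called and higher in knockouts and for those called in both batches, with all tested genes as a dotted line. Bars of lower genes stand above the line in both panels, at 16.6% and 5.6%.

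The next tested gene along the chromosome was called in the same direction for 21.1% of higher genes (background 13.2%) and 16.3% of lower genes (background 11.4%). Runs of at least 4 neighbouring genes called in 1 direction numbered 25 for higher and 13 for lower genes. The 2 longest were of lower genes, 19 beta protocadherins and 9 gamma protocadherins, cell adhesion genes whose promoter choice is a textbook function of CTCF; gamma transcripts end in common exons, and how reads were divided among them is uncertain. A run of 4 zinc finger genes on chromosome 6, chr6:47920476-48048911, also fell, with Zfp783 at -0.97 (SE 0.11) and Zfp777 at -0.66 (SE 0.06). On chromosome 15, chr15:76538832-76626086, 5 genes from Slc52a2 to Vps28 fell, the most being Slc39a4, a zinc importer, from a median of 45.9 to 20.4 RPKM (-1.11, SE 0.14). Complement genes C1ra (-1.12, SE 0.16) and C1rb (-1.06, SE 0.15) fell in a run of 4 with C1s1 and C1rl at chr6:124493113-124581171; C1ra and C1rb are near copies of each other, and the split of their reads is uncertain.

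Among the higher runs was the matrix metalloproteinase cluster at chr9:7184520-7794333, where Mmp12, Mmp3, Mmp10 and Mmp7 rose with the flanking genes Dcun1d5 and Tmem123. Mmp12, the macrophage elastase, lay at -0.0351, 0.0985 and 0.214 RPKM in floxed and at 1.48, 3.66 and 6.81 RPKM in knockout libraries. Mmp7, matrilysin of epithelia, was at -1.636 to -1.265 RPKM in mixed-batch floxed libraries and 1.72 to 1.77 RPKM in vehicle-only ones. Its knockout median was 7.11 RPKM, with the high of 23.2 RPKM in library 10. No floxed library reached a knockout one in either gene. Mmp3 (0.51, SE 0.17, limma adjusted p = 0.0340) no longer passed without knockout library 11b (limma adjusted p = 0.0808). Hoxd10, Hoxd9, Hoxd8 and Hoxd3 formed another higher run at chr2:74691924-74748442. Hoxd3 rose most, from 8.02, 9.64 and 10.5 to 14.8, 16.9 and 20.7 RPKM (0.83, SE 0.07, limma adjusted p = 6.37e-09), and Hoxd9 least (0.25, SE 0.07).

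Hox genes give position along the body axis and along the female tract. Of 30 tested 5 rose and 4 fell (16.7% and 13.3%, near the 13.1% and 11.5% of all genes). Without the 3 marker-bearing libraries 5 rose and 2 fell. Their median log2 fold change was -0.07, against -0.01 over all tested genes. Besides the 4 Hoxd genes, Hoxb9 rose from a median of 3.26 to 5.11 RPKM (0.53, SE 0.07). Hoxa11, needed in uterine stroma for implantation, fell from 45.3, 59.4 and 72.6 to 32.4, 39.0 and 42.7 RPKM (-0.55, SE 0.09, limma adjusted p = 9.08e-05). Hoxa10, its neighbour with a like role, fell by less (-0.30, SE 0.07, limma adjusted p = 0.00435). Groups did not overlap for Hoxa11 and did for Hoxa10.

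Insulin-like growth factor genes held the gene with the largest rise by the rule for named genes. Igfbp2, a secreted IGF-binding protein, was at 1.72, 4.67 and 6.34 RPKM in floxed and at 64.2, 72.9 and 101 RPKM in knockout libraries (log2 fold change 4.12, SE 0.21, limma adjusted p = 6.66e-12). Igf2, the fetal growth factor, was at 12, 29.5 and 43.4 RPKM in floxed and at 90.6, 109 and 135 RPKM in knockout libraries (2.02, SE 0.19, limma adjusted p = 2.68e-08). The highest floxed library stayed below the lowest knockout library for both genes. The rise of Igf2 was larger in the vehicle-only batch (2.76) than in the mixed batch (1.28), a difference called on the log2 scale (limma adjusted p = 0.00405) and not on the RPKM scale (limma adjusted p = 0.1745), where it was 104 against 58.8 RPKM. Igf2bp3, an RNA-binding protein of Igf2 mRNA, went from a median of 0.664 to 2.18 RPKM (1.16, SE 0.11). In the whole list of 18, 6 rose and 1, Pappa, fell (33.3% and 5.56%). Igf1 (0.38, SE 0.13) lost its call without knockout library 9 (limma adjusted p = 0.0823). Pappa (-0.60, SE 0.20) lost its call without knockout library 13 (limma adjusted p = 0.0681). Without the 3 marker-bearing libraries 4 rose and none fell.

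Igf2 and H19 are neighbours on chromosome 7 that share enhancers, and CTCF bound to the unmethylated maternal control region keeps the enhancers from Igf2. H19 was at 52.1, 81.3 and 93.1 RPKM in floxed and at 37.9, 65.0 and 94.8 RPKM in knockout libraries, and its difference did not pass the test (-0.30, SE 0.16, limma adjusted p = 0.188). It was -0.64 in the mixed and 0.04 in the vehicle-only batch. Which parental allele gave the added Igf2 RNA cannot be read from these values. Of 39 imprinted genes tested 6 rose and 3 fell (15.4% and 7.69%, near the 13.1% and 11.5% of all genes). Asb4 rose from a median of 1.6 to 5.27 RPKM (1.78, SE 0.37) and Peg10 from 2.16 to 3.83 RPKM (0.68, SE 0.15), with overlap in both. Kcnq1 fell from 8.20, 8.93 and 13.1 to 3.61, 5.11 and 6.81 RPKM (-0.83, SE 0.13), and the non-coding RNA Meg3 from a median of 10.5 to 7.61 RPKM (-0.50, SE 0.11), both with no overlap.

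Among 16 steroid receptors and partners 3 fell and none rose (18.8% and 0%). Pgr was at 33.3, 39.4 and 45.0 RPKM in floxed and at 16.4, 24.1 and 27.3 RPKM in knockout libraries (exact permutation test, two-sided, p = 0.000155). The knockouts carry Cre at this locus, and whether the lower Pgr follows from Cre or from Ctcf cannot be told apart here. Esr1, the estrogen receptor, was at 46.5, 49.3 and 55.7 RPKM in floxed and at 42.9, 51.3 and 56.4 RPKM in knockout libraries, a difference of 0.570 RPKM (exact permutation p = 0.758). The difference was 4.83 RPKM in the mixed batch (exact p = 0.0286, the smallest that 4 against 4 allows) and -3.69 in the vehicle-only batch (exact p = 0.286). Gper1, a membrane receptor for estrogen, fell from 4.66, 5.07 and 6.25 to 1.92, 2.03 and 2.88 RPKM (-1.10, SE 0.10, limma adjusted p = 1.55e-08) with no overlap. Of 11 steroid enzymes 4 rose and 1 fell (36.4% and 9.09%). Srd5a1, the steroid 5 alpha-reductase, went from a median of 3.54 to 7.15 RPKM (0.99, SE 0.09), and Akr1c14 rose by 0.90 (SE 0.17). Hsd17b1 and Cyp11a1 reached medians of 1.38 and 1.30 RPKM from 0.519 and 0.222. The sulfotransferase Sult1d1 was the 1 that fell (-2.79, SE 0.34).

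Of 25 transcription factors of uterine stroma and glands 8 fell and 2 rose (32.0% and 8.00%, median -0.08), and 8 and 1 without the 3 marker-bearing libraries. Osr1, a mesenchymal zinc finger factor, fell from 19, 25.8 and 33.2 to 8.44, 9.24 and 13.6 RPKM (-1.32, SE 0.11, limma adjusted p = 5.79e-09), at -1.35 in the mixed and -1.28 in the vehicle-only batch. Msx1, a homeobox factor of the receptive uterus, fell by 0.64 on the log2 scale (SE 0.11), and the gland factor Foxa2 from a median of 2.98 to 0.364 RPKM (-2.01, SE 0.24). Hand2 (0.08, SE 0.09) and Nr2f2 (-0.08, SE 0.04), both stromal mediators of progesterone action, did not pass. Hedgehog signals pass from epithelial Ihh to stromal receptors and GLI factors, and their stromal readouts Ptch1 (-1.33, SE 0.15) and Hhip (-1.91, SE 0.22) were lower in every knockout library than in every floxed one. Of 14 genes of that pathway 6 fell (42.9%).

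Of 18 stromal genes 7 fell and 2 rose (38.9% and 11.1%), and 7 and 1 without the 3 marker-bearing libraries. Thy1 went from 68.8, 74.5 and 83.5 to 43.4, 46.6 and 53.1 RPKM (-0.65, SE 0.06, limma adjusted p = 2.50e-08), Nt5e (the ectonucleotidase CD73) from a median of 10.8 to 3.74 RPKM (-1.40, SE 0.16) and Pdgfra from 38.3 to 23.2 RPKM (-0.64, SE 0.11). Thy1 and Nt5e had no overlap. Of 16 smooth muscle genes 1 rose and 2 fell (6.25% and 12.5%, against 13.1% and 11.5% of all tested genes). Without the 3 marker-bearing libraries none rose and 2 fell. Myh11 (-0.13, SE 0.08) and Acta2 (-0.07, SE 0.13) did not pass.

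Of 36 collagen chains 16 rose and 2 fell (44.4% and 5.56%, median 0.31), and 16 and 1 without the 3 marker-bearing libraries. Leading them was Col6a5, at 2.28 to 2.59 RPKM in mixed-batch floxed libraries and -0.923 to -0.0363 RPKM in vehicle-only ones. In knockout libraries Col6a5 was at 11.2, 17.7 and 27.0 RPKM. Col22a1, a chain of tissue junctions, went from a median of 0.324 to 1.81 RPKM (1.54, SE 0.16), Col26a1 from 4.61 to 10.9 RPKM (1.25, SE 0.15) and Col8a2 from 5.05 to 9.70 RPKM (0.91, SE 0.09), each with no overlap. The abundant fibrillar chain Col1a1 did not pass (0.14, SE 0.17), with its highest value, 673 RPKM, in knockout library 9. Of 30 matrix proteases and their inhibitors 13 rose and none fell (43.3%), and 11 rose and 1 fell without the 3 marker-bearing libraries. The plasminogen activators Plat, at 43.4, 58.9 and 69.4 RPKM in floxed and 89.7, 120 and 149 RPKM in knockout libraries (0.97, SE 0.16), and Plau, from a median of 2.87 to 6.26 RPKM (0.99, SE 0.14), both rose. So did Serpine2, which inhibits both enzymes, from 25.5, 30.5 and 36.1 to 54.0, 72.6 and 89.8 RPKM (1.24, SE 0.09, limma adjusted p = 1.60e-09). Groups did not overlap for either activator or for the inhibitor. Laminins and integrins moved both ways, with 9 of 38 higher and 6 lower (23.7% and 15.8%). Lamc3, a laminin gamma chain, fell from 9.54, 12.2 and 14.5 to 1.5, 2.08 and 2.99 RPKM (-2.27, SE 0.13, limma adjusted p = 1.64e-11). Itgb4, the integrin of epithelial anchoring junctions, fell from a median of 15.0 to 8.86 RPKM (-0.92, SE 0.13).

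WNT ligands, which pattern the glands and the stroma, moved in opposite directions. Of 11 tested 3 rose and 3 fell (27.3% each). Wnt11 fell from 5.71, 7.44 and 17.6 to 0.221, 1.39 and 2.92 RPKM (-2.42, SE 0.26, limma adjusted p = 2.58e-07), with the floxed high of 17.6 RPKM in library 1a. Wnt7b, an epithelial ligand, rose from 0.792, 1.56 and 2.89 to 4.86, 6.20 and 7.54 RPKM (1.75, SE 0.18), and Wnt4, a stromal one, from a median of 2.02 to 8.12 RPKM (1.45, SE 0.28). Floxed library 12 stood at 8.18 RPKM of Wnt4, within the knockout range. Among receptors, inhibitors and targets 8 of 31 rose and 7 fell (25.8% and 22.6%). Dkk3 rose from 15.7, 17.9 and 22.1 to 30.0, 38.8 and 50.3 RPKM (1.11, SE 0.12), the target Axin2 by 0.41 (SE 0.09) and the stem cell receptor Lgr5 by 1.34 (SE 0.25; 0.47 in the mixed and 2.22 in the vehicle-only batch). Rnf43, a target that removes WNT receptors from the membrane, fell from a median of 5.22 to 3.34 RPKM (-0.72, SE 0.11).

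Of 46 genes of BMP and TGF-beta signalling 8 rose and 8 fell (17.4% each, against 13.1% and 11.5% of all tested genes). Without the 3 marker-bearing libraries 6 rose and 4 fell. Fst, follistatin, which traps activin, fell from 2.53, 4.39 and 5.36 to 0.486, 1.71 and 2.48 RPKM (-1.14, SE 0.18, limma adjusted p = 4.24e-05; limma adjusted p = 0.0978 on the RPKM scale). Inhba, the activin A subunit, fell from a median of 1.76 to 0.761 RPKM (-0.78, SE 0.14), whereas Bmp2, required for decidualization, rose from 4.83 to 8.50 RPKM (0.72, SE 0.13). In the FGF list 5 of 20 rose and 4 fell (25% and 20%), and 5 and 2 without the 3 marker-bearing libraries. Fgf21, a stress-induced endocrine factor, was between -0.0746 and 0.143 RPKM in floxed and at 2.41, 2.81 and 4.22 RPKM in knockout libraries (limma adjusted p = 3.35e-12; with the floxed group near 0 no fold is given). The FGF-responsive factors Etv4 and Etv5 parted, with Etv4 going from a median of 1.05 to 4.16 RPKM (1.54, SE 0.17) and Etv5 from 12.4 to 7.62 RPKM (-0.66, SE 0.09).

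Of 17 genes of the retinoic acid pathway 6 rose and 1 fell (35.3% and 5.88%). Of the 3 dehydrogenases that make retinoic acid, 2 rose: Aldh1a1 from 10.5, 12.7 and 14.8 to 22.4, 28.1 and 29.5 RPKM (1.11, SE 0.11, limma adjusted p = 4.11e-08) and Aldh1a3 from -0.779, 5.2 and 10.8 to 17.0, 30.9 and 37.3 RPKM (2.64, SE 0.42). Aldh1a2, the third, had medians of 25.5 and 27.6 RPKM and did not pass (0.06, SE 0.15). The retinol dehydrogenase Rdh10, which acts a step before, rose by 0.50 (SE 0.13). No floxed library reached a knockout library in Aldh1a1 or Aldh1a3.

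Of 22 genes of simple epithelium 10 fell and 4 rose (45.5% and 18.2%; median -0.12). Krt8 and Krt18, the keratin pair of simple epithelia, went from medians of 82.8 and 84.5 to 56.6 and 54.5 RPKM (-0.51, SE 0.13 and -0.61, SE 0.13), and Krt19 from 78.3 to 46.7 RPKM (-0.73, SE 0.16). Ehf, an epithelial ETS factor, fell from 15.6, 19 and 41.8 to 3.0, 6.89 and 12 RPKM (-1.72, SE 0.24). The adhesion molecule Epcam did not pass (0.30, SE 0.11, limma adjusted p = 0.0545), and the membrane protease St14 rose from 14.3, 17.9 and 19.4 to 23.3, 29.6 and 37.1 RPKM (0.73, SE 0.09). The sum of the 22 genes was 579 to 883 RPKM in floxed and 506 to 727 RPKM in knockout libraries, so the groups overlapped; the part of epithelial cell number in these values was not tested. Of 16 claudins, seal proteins of tight junctions, 3 rose and 4 fell: Cldn8 (from a median of 7.41 to 2.69 RPKM; -1.27, SE 0.13) and Cldn3 (84.8 to 47.0 RPKM; -0.90, SE 0.14) fell, and Cldn6, a claudin of embryonic epithelia, rose from 0.410 to 9.78 RPKM (3.39, SE 0.28).

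Of 16 genes of basal and squamous epithelium 4 rose and 2 fell (25% and 12.5%). Krt17 and Lor, keratin and cornified envelope genes of stratified epithelia, rose from medians of 0.745 and 1.42 RPKM to 18.9 and 7.48 RPKM (3.90, SE 0.22 and 2.69, SE 0.27). Krt5 and Trp63, defining markers of basal squamous cells, did not pass: Krt5 was at -4.21, 4.72 and 9.28 RPKM in floxed and -1.92, 5.22 and 50.5 RPKM in knockout libraries, with the high value in library 9, and Trp63 had a log2 fold change of 0.15 (SE 0.23). The lowest knockout values of Krt17 and Lor were 15.4 and 5.75 RPKM, against floxed highs of 1.97 and 1.88 RPKM. The other 2 that rose were Sprr1a (1.86, SE 0.51), a cornified envelope gene with overlap between the groups, and the desmosomal plakophilin Pkp3 (0.64, SE 0.11). Keratin gene Krt10 (-0.64, SE 0.16) and Dsp, desmoplakin of desmosomes (-0.58, SE 0.13), fell.

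Of 8 gland genes tested 5 fell and 2 rose (62.5% and 25%). Those that rose were Aldh1a1 and Lif, a cytokine of implantation (0.84, SE 0.11). Calb1, Cxcl15 and Foxa2 of this list were also among the 12 genes with the lowest fold changes by the rule for named genes. Calb1, a calcium-binding protein of uterine epithelium, fell from 38.9, 55.2 and 99.8 to 5.11, 12.1 and 24.6 RPKM (-2.33, SE 0.45, limma adjusted p = 0.000516). Cxcl15, a chemokine of uterine glands, fell from 1.93, 4.19 and 5.11 to 0.186, 0.344 and 0.952 RPKM (-2.29, SE 0.19), and Lpar3, a lysophosphatidic acid receptor that times implantation and 1 of the 12, from 7.82, 9.35 and 19.1 to 0.774, 1.72 and 4.94 RPKM (-2.15, SE 0.23). Fads2b (-2.33, SE 0.24), the secreted phospholipase Pla2g10 (-2.0, SE 0.29), the potassium channel subunit Lrrc26 (-2.12, SE 0.22) and the vitamin C transporter Slc23a1 (-2.11, SE 0.32) were others of the 12, next to Sult1d1, Wnt11, Lamc3 and Ptgfr. In 11 of the 12 no knockout library reached a floxed one, which held for 3.63% of all tested genes, and Slc23a1 overlapped. The 12 had been picked by their fold changes in these same libraries, so little overlap follows from the choice. Fxyd4, a regulator of the sodium pump, stood outside the rule because 1 knockout value was below 0 after the authors' correction; it was at 50.6, 73.2 and 144 RPKM in floxed and -0.583, 7.87 and 16.2 RPKM in knockout libraries. Fxyd3 (-0.96, SE 0.13) and the pump subunit Atp1b1 (-0.75, SE 0.14) fell with it, and Fxyd2 rose from a median of 1.99 to 7.01 RPKM (1.91, SE 0.26).

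**Figure D4:**
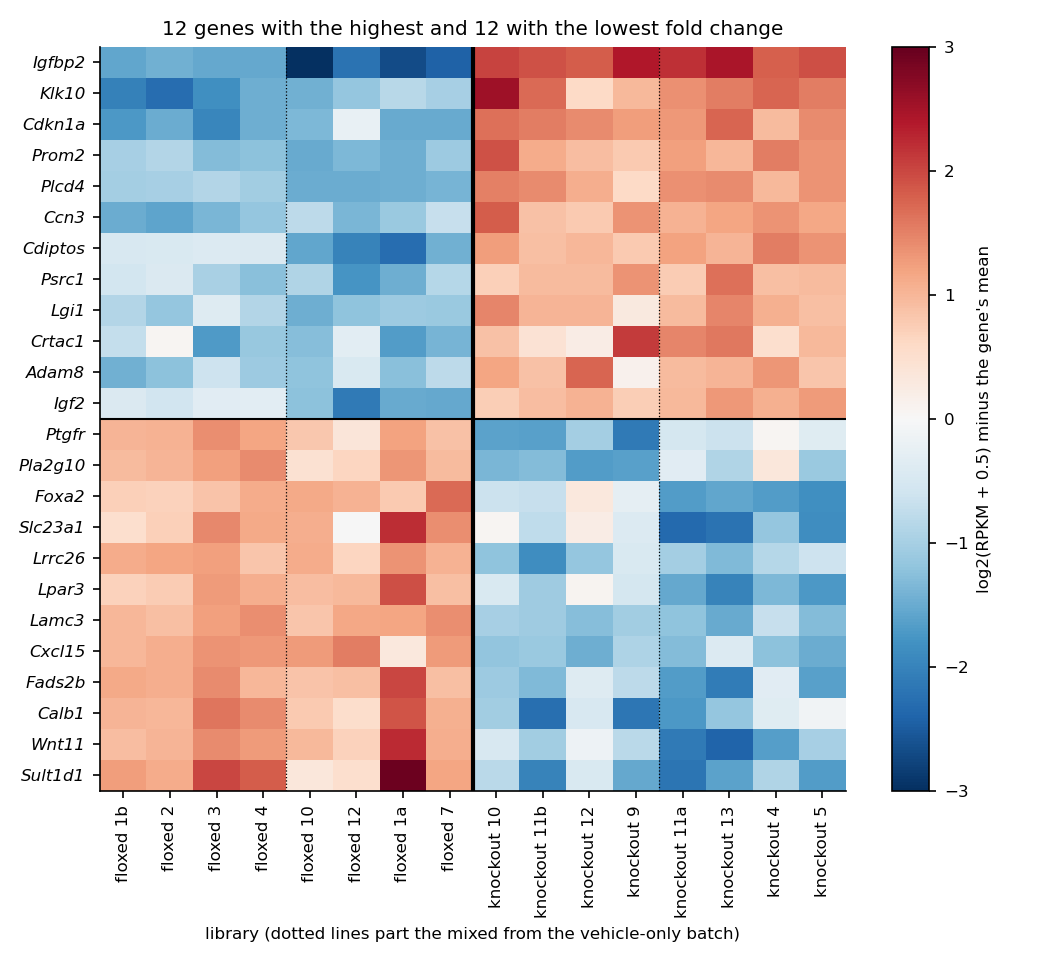
Log2(RPKM + 0.5) minus the gene's mean over the 16 vehicle libraries (colour), with floxed libraries left and knockout libraries right. Rows are the 12 genes with the highest and the 12 with the lowest fold change by the rule for named genes. That rule leaves out genes with a value at or below 0 in any of the 16 libraries, some of which had larger fold changes. Floxed and knockout libraries are of opposite colour in most cells of each row; floxed library 1a is darkest in Sult1d1 and Wnt11, and knockout library 10 in Klk10.

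The 12 genes with the highest fold changes by the same rule had no overlap between the groups. Every knockout library was above every floxed one for 4.8% of all tested genes. These 12 too had been picked by their fold changes in the same libraries, so the separation follows from the choice. Genes with a value at or below 0 in any of the 16 libraries are outside the rule. A2m, with the highest fold change of all tested genes (4.55), was left out in this way. Its log2 fold change was 7.10 in the mixed and 2.00 in the vehicle-only batch. This difference was called on the log2 scale (limma adjusted p = 0.000914) and not on the RPKM scale (limma adjusted p = 0.697). Floxed libraries held -7.47 to 1.85 RPKM of A2m in the mixed batch and 19.5 to 24.8 RPKM in the vehicle-only batch. After Igfbp2 came Klk10, a secreted serine protease, from 1.78, 3.54 and 5.79 to 16.3, 31.8 and 64.5 RPKM (3.01, SE 0.24), and Cdkn1a. Ccn3, a matrix signalling protein, rose from 3.66, 4.68 and 7.24 to 20.9, 27.5 and 43.5 RPKM (2.39, SE 0.14). Plcd4, a phospholipase C, rose from a median of 0.418 to 4.96 RPKM (2.44, SE 0.12, limma adjusted p = 4.60e-12) and Prom2, a membrane protrusion protein, from 0.243 to 3.54 RPKM (2.46, SE 0.15). The rest were Lgi1, a secreted ligand (2.05, SE 0.16), Crtac1, a matrix protein (2.04, SE 0.31), the metalloproteinase Adam8 (2.02, SE 0.36), Psrc1, Igf2 and Cdiptos (2.26, SE 0.22), an antisense transcript of Cdipt whose reads cannot be separated from its partner's without strand.

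Of 33 genes on the list of p53, the stress-activated transcription factor, and its targets, 19 rose and 2 fell (57.6% and 6.06%, median 0.45), and 18 higher and 1 lower without the 3 marker-bearing libraries. Cdkn1a, the cyclin-dependent kinase inhibitor p21, went from 3.20, 4.57 and 11.8 to 27.5, 38.1 and 47.7 RPKM (2.82, SE 0.18, limma adjusted p = 9.90e-11), the floxed high being library 12. Ccng1 rose from 17.6, 21.2 and 28.3 to 36.9, 47.1 and 56.7 RPKM (1.11, SE 0.10) and Sesn2, a stress-induced inhibitor of mTORC1, from a median of 2.68 to 8.89 RPKM (1.48, SE 0.12). Psrc1 rose from 3.06 to 12.7 RPKM (2.06, SE 0.32) and the cell death genes Pmaip1 and Bax by 1.72 (SE 0.18) and 0.53 (SE 0.12). Trp53 RNA itself did not pass (0.11, SE 0.09). Rrm2b, a p53-induced ribonucleotide reductase subunit, was 1 of the 2 that fell (-0.41, SE 0.11; limma adjusted p = 0.0522 without the 3 marker-bearing libraries); it lies in a run of 4 lower genes at chr15:37231793-37961318.

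Gdf15, a secreted factor induced by several kinds of stress, was between -0.139 and 0.869 RPKM in floxed and at 2.10, 4.82 and 7.01 RPKM in knockout libraries (2.60, SE 0.26). Of 28 genes of the integrated stress and unfolded protein responses 6 rose and 2 fell (21.4% and 7.14%). Without the 3 marker-bearing libraries 5 rose and 1 fell. Among those that rose were 4 stress-induced genes: Trib3, from 0.0816, 1.13 and 1.97 to 2.67, 4.97 and 11.3 RPKM (2.01, SE 0.32), Atf3 (1.44, SE 0.23), Chac1 (0.93, SE 0.18) and Ddit3 (0.43, SE 0.10). The endoplasmic reticulum chaperone Hspa5 (0.22, SE 0.17) and Atf4 RNA (0.16, SE 0.11) did not pass. Hmox1, which degrades heme under oxidative stress, rose from 5.03, 6.74 and 8.29 to 13.6, 15.4 and 17.6 RPKM (1.17, SE 0.11), by 1.14 and 1.19 in the 2 batches; 5 of 35 genes of glutathione and thioredoxin metabolism rose and 1 fell (14.3% and 2.86%), and 5 and none without the 3 marker-bearing libraries. Of 34 cell cycle genes 6 rose and none fell (17.6% and 0%). The mixed batch alone called 1 higher (11.5% of all genes) and the vehicle-only batch, which holds none of the 3 marker-bearing libraries, 11 (5.05% of all genes). Over both batches none was called by limma without the 3 marker-bearing libraries (3 at an unadjusted p under 0.05), while the log2 fold change of the mitotic kinase Plk1 went from 1.02 to 0.86 and that of Cdc20, an activator of the anaphase-promoting complex, from 1.09 to 0.86. The proliferation marker Mki67 did not pass and was at 6.12 to 42.2 RPKM in knockout and 6.69 to 18 RPKM in floxed libraries.

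Of 24 leukocyte genes tested 18 were higher and 1, Cd14, lower (75% and 4.17%, median 0.73), with 17 and 1 without the 3 marker-bearing libraries. The sum of the 33 genes listed, tested or not, was 151 to 252 RPKM in floxed and 302 to 550 RPKM in knockout libraries, with no overlap. Cd68, a macrophage marker, went from 5.91, 9.85 and 11.4 to 13.9, 22.3 and 29.1 RPKM (1.20, SE 0.15), Fcgr3, a receptor for antibodies, from a median of 5.42 to 12.1 RPKM (1.28, SE 0.17) and C1qb from 23.6 to 50.6 RPKM (1.05, SE 0.15). Cd14 fell from 11.5 to 6.12 RPKM (-0.76, SE 0.18). The macrophage elastase Mmp12 and the Ms4a run on chromosome 19 rose in the same libraries. How far these genes follow the number of leukocytes was not tested.

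Of 20 complement genes 10 rose and 2 fell (50% and 10%). Cfi and Cfb went from medians of 0.826 and 3.53 to 4.35 and 10.4 RPKM (1.88, SE 0.25 and 1.47, SE 0.30), while C1ra fell, as above. C3 spanned 9.85 to 101 RPKM in floxed and 15.6 to 105 RPKM in knockout libraries (0.22, SE 0.47). Of 22 genes of antigen presentation 10 rose and none fell (45.5%), with the class I genes H2-D1 from 50.6, 58.1 and 65.2 to 69.6, 90.9 and 100 RPKM (0.60, SE 0.12) and B2m, its light chain, by 0.49 (SE 0.14); class I genes are near copies, and reads may be split between them. Among 32 interferon-stimulated genes 14 rose and 1 fell (43.8% and 3.12%), and 9 and none without the 3 marker-bearing libraries; Ifi44 (0.86, SE 0.19) and Gbp3 (0.81, SE 0.15) were higher. Of 65 chemokines, interleukins and receptors 22 rose and 9 fell (33.8% and 13.8%). Cxcl16 went from 4.44, 5.92 and 7.67 to 14.4, 17.5 and 26.1 RPKM (1.53, SE 0.12) and Cxcl14 from 13, 14.9 and 17.8 to 32.5, 41.2 and 56.4 RPKM (1.47, SE 0.13). Il1rn, the interleukin 1 receptor antagonist, was near 0 in floxed libraries, with a highest value of 0.220 RPKM, and reached 0.846 to 3.77 RPKM in knockouts. Il17rb, a receptor for interleukin 25, fell from 18.4, 30.2 and 42.6 to 7.15, 10.7 and 14.9 RPKM (-1.40, SE 0.18).

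Prostaglandins act in the uterus at implantation and birth. Ptger4, a receptor for prostaglandin E, went from 15.8, 17.7 and 19.6 to 4.5, 6.02 and 7.31 RPKM (-1.5, SE 0.09, limma adjusted p = 3.56e-11), and Ptgfr, the receptor for prostaglandin F, from 6.04, 9.90 and 12.9 to 0.669, 2.37 and 4.79 RPKM (-1.97, SE 0.22; -2.75 in the mixed and -1.19 in the vehicle-only batch). Neither overlapped. Pla2g4a, the phospholipase that frees arachidonic acid, fell by 0.55 on the log2 scale (SE 0.14), and Ptgs1, cyclooxygenase 1, rose by 0.64 (SE 0.14). Ptgs2, cyclooxygenase 2, did not pass (0.13, SE 0.18). Ptgds, prostaglandin D synthase, was at 3.12 to 4.39 RPKM in mixed-batch floxed libraries and -1.43 to -0.889 RPKM in vehicle-only ones. Its knockout median was 17.1 RPKM. Tbxas1, thromboxane synthase, rose by 0.82 (SE 0.14). In the list of 21, 4 rose and 4 fell (19% each).

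Of 61 axon guidance genes 18 rose and 14 fell (29.5% and 23%), and 15 and 8 without the 3 marker-bearing libraries. Robo3 was at -0.376 to 0.549 RPKM in floxed and at 4.05, 5.62 and 7.55 RPKM in knockout libraries, its relative Robo1 rose by 0.71 (SE 0.10) and the ligand Slit2 by 0.71 (SE 0.16), whereas Slit3 fell by 0.69 on the log2 scale (SE 0.13). The semaphorin Sema4f went from a median of 0.212 to 1.79 RPKM (1.74, SE 0.12) and Plxnc1, a semaphorin receptor, from 1.01 to 3.79 RPKM (1.71, SE 0.17). Uchl1, a ubiquitin hydrolase abundant in neurons, rose from 3.37, 4.75 and 6.52 to 14.9, 21.2 and 23.1 RPKM (1.94, SE 0.12, limma adjusted p = 7.02e-11) and was the only 1 of 8 nerve and glia genes to be called.

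**Figure D5:**
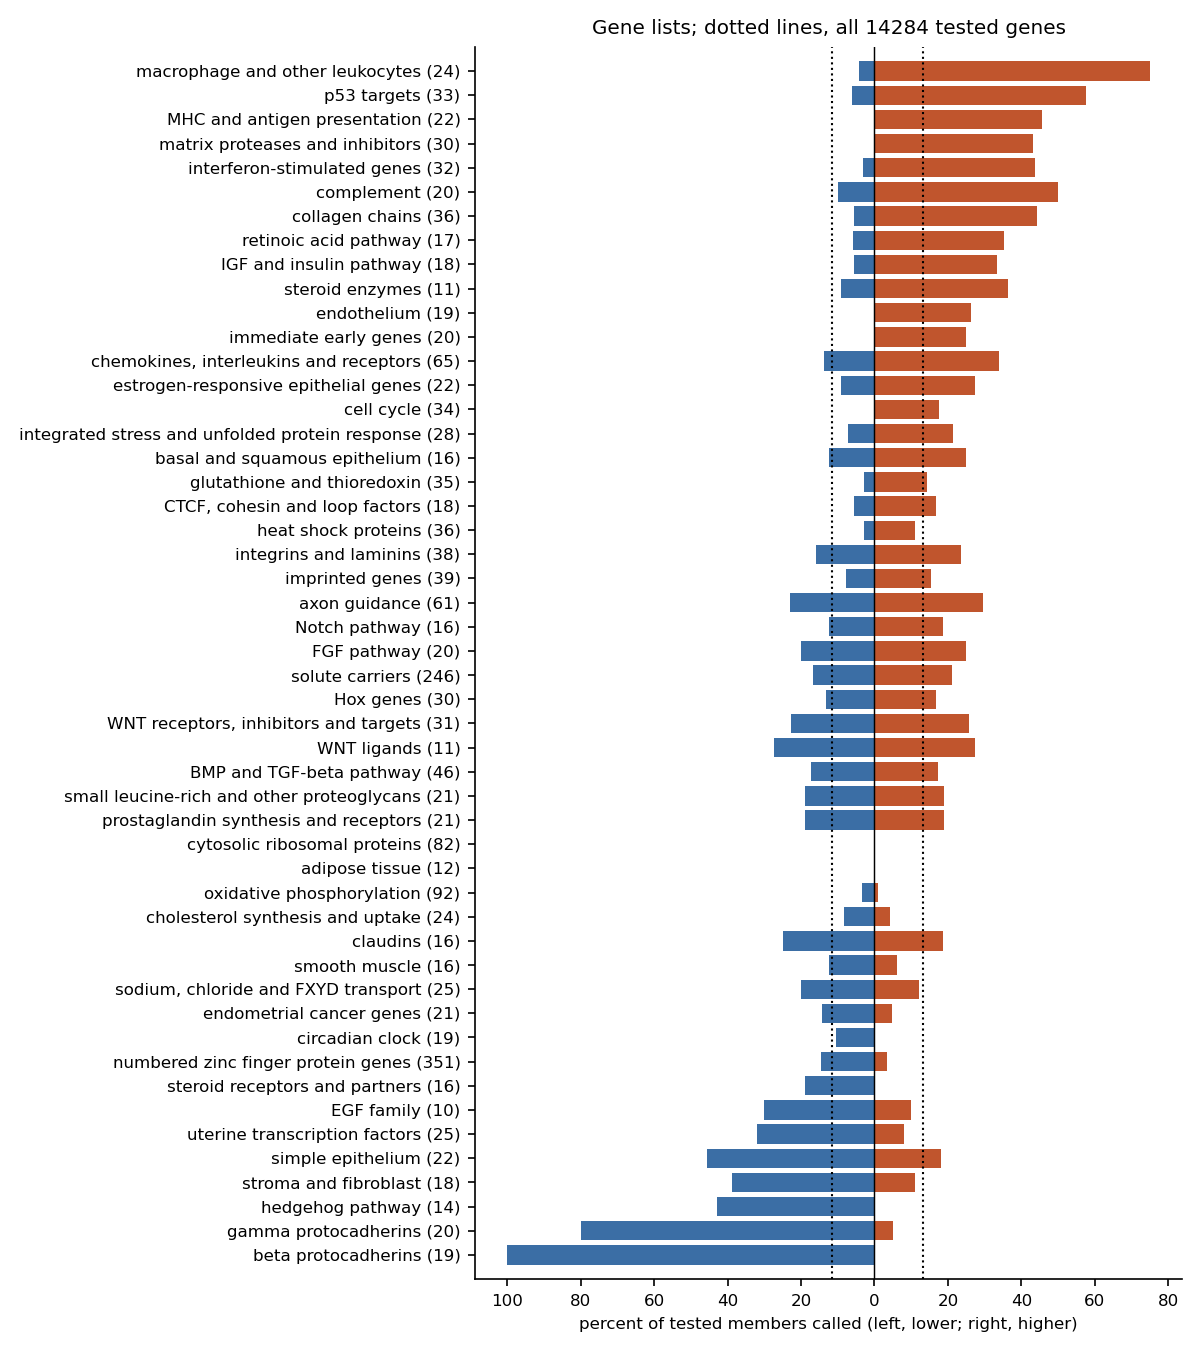
Percent of the tested members of the 50 gene lists with at least 10 tested members that were higher (right) or lower (left) in knockouts, with the number tested in brackets and the shares of all 14284 tested genes as dotted lines at 13.1% and 11.5%. Among these lists leukocyte genes extend furthest to the right (75%) and beta protocadherins (100%), gamma protocadherins (80%) and simple epithelium (45.5%) furthest to the left; ribosomal protein and adipose genes have no bar.

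The lists of ribosomal protein, oxidative phosphorylation and heat shock genes lay below the background. None of 82 cytosolic ribosomal protein genes was called by limma, with 1 at an unadjusted p under 0.05 and log2 fold changes between -0.18 and 0.26; 2 rose and 2 fell after quantile normalization. Of 92 genes of oxidative phosphorylation 1 rose and 3 fell (1.09% and 3.26%), of which the assembly factor Ndufaf3 went from 5.75, 6.06 and 6.33 to 2.64, 3.49 and 4.62 RPKM (-0.67, SE 0.10). Of 36 heat shock genes 4 rose and 1 fell (11.1% and 2.78%), with Hspa4l at 1.15 (SE 0.16). Numbered zinc finger genes, many of which repress repeats, formed the largest family on the lists: of 351 tested 12 rose and 51 fell (3.42% and 14.5%, median -0.07), a share of lower genes near the background and of higher genes under it, and 13 rose and 21 fell without the 3 marker-bearing libraries. After quantile normalization 13 of the 351 rose and 75 fell, against 1883 and 2104 of all 14284 tested genes. Zfp764 fell from 5.81, 6.04 and 6.84 to 3.27, 3.54 and 3.98 RPKM (-0.71, SE 0.05, limma adjusted p = 7.08e-10).

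Markers of tissues next to the uterus varied between libraries. The sum of 13 adipose markers ran from 13.9 to 1932 RPKM in floxed and from 58.5 to 2026 RPKM in knockout libraries, and none of the 12 tested was called by limma, with 0 at an unadjusted p under 0.05. The 12 oviduct markers summed to 136 to 287 RPKM in floxed and 144 to 416 RPKM in knockout libraries, with Ovgp1 highest in knockout library 12 and not called (-0.04, SE 1.44). Of 6 skeletal muscle markers tested 4 were lower in knockouts and none higher (66.7% and 0%). The 10 listed summed to 27.1 to 105 RPKM in knockout and 85.0 to 184 RPKM in floxed libraries. Over the 16 libraries Acta1 was at 14.4 to 107 RPKM and Tnni2 at 7.53 to 63.0 RPKM. The skeletal myosin genes Myh1, Myh2 and Myh4 of the same list reached at most 0.0204 RPKM in any library. Whether these sums reflect adjoining muscle, and its part in any other difference, was not tested.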

How the data were processed

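RNA from whole uterus was sequenced in 24 libraries. The authors deposited 1 table of batch-corrected gene-level RPKM for 22943 genes; the submitters' processing notes name cutadapt 2.7, TopHat, Partek and mm10, while for the counting tool, annotation, strand setting and correction method no source used here gives a name. Of the deposited values 6.66% are below 0, and the vehicle means of both batches are equal for 14284 of 14284 tested genes (tolerance 1e-04). Depth was estimated from the RPKM that 1 read adds.

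Genes were kept that reached 1 RPKM in 4 or more of the 24 libraries. Values below 0 were set to 0, and the deposited RPKM were put on a log2(RPKM + 0.5) scale, so folds of low genes are understated. limma 3.58.1 (R 4.3.3) was fitted to all 24 libraries with 4 groups and batch as terms (19 residual degrees of freedom, trended and robust variance), with Benjamini-Hochberg adjustment at 0.05; fold changes and SE are knockout minus floxed on that scale. The script was tested on simulated data. Ctcf, Pgr and Esr1 were also tested by exact permutation, two-sided. Named by rule were the called genes with the 12 highest and 12 lowest fold changes (higher group averaging 1 RPKM or more, values above 0 in all 16 libraries and the same sign in both batches, predicted genes left out) and, per list, up to 3 called members by smallest adjusted p; other genes were chosen after their values were seen. A few of these genes are left out of the text. The members and lists were chosen with earlier results of these data known. Alternatives changed the pseudocount, filter, scale, normalization, libraries, weights, batch term and replicate block. Promoter windows came from RefSeq and gene positions from GENCODE.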

Additional observations from a re-analysis of the deposited data

Results flagged for a closer look

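In 47 of 366 pairs of a gene named in the text and a genotype (12.8%), 1 of the 8 libraries stood apart from the rest by Dixon's criterion, where chance gives about 1 in 20 groups. Floxed library 10 was above the other 7 in Acta2 (448 RPKM, next 391). Floxed library 12 was above the other 7 in Atf4 (99.7 RPKM, next 67.7), Cdkn1a (11.8 RPKM, next 5.16), Hspa5 (183 RPKM, next 131) and Wnt4 (8.18 RPKM, next 3.5). Floxed library 12 was below the other 7 in Pdgfra (25.5 RPKM, next 36.1). Floxed library 1a was above the other 7 in Atp1b1 (79.8 RPKM, next 55.8), Cldn3 (150 RPKM, next 93.3), Ehf (41.8 RPKM, next 27.9), Fads2b (114 RPKM, next 75.2), Kcnq1 (13.1 RPKM, next 9.26), Krt10 (9.99 RPKM, next 5.28), Krt19 (121 RPKM, next 86.3), Lpar3 (19.1 RPKM, next 12), Slc23a1 (14.2 RPKM, next 8.14), Sult1d1 (40.2 RPKM, next 20.9) and Wnt11 (17.6 RPKM, next 9.68). Floxed library 3 was above the other 7 in Lgi1 (3.08 RPKM, next 2.06) and Ovgp1 (146 RPKM, next 60.2). Floxed library 4 was above the other 7 in Hhip (4.14 RPKM, next 2.75) and Ptch1 (39.5 RPKM, next 30.2). Floxed library 7 was above the other 7 in Bmp2 (8.92 RPKM, next 5.44), Cyp11a1 (0.333 RPKM, next 0.245), Foxa2 (5.39 RPKM, next 3.48) and Rnf43 (7.93 RPKM, next 5.98). Knockout library 10 was above the other 7 in Ccn3 (43.5 RPKM, next 31.4), Cfb (21.3 RPKM, next 14.2), Cxcl16 (26.1 RPKM, next 18.4), Il1rn (3.77 RPKM, next 2), Klk10 (64.5 RPKM, next 37), Mmp7 (23.2 RPKM, next 9.99), Msx1 (68.7 RPKM, next 53.7), Plxnc1 (7.04 RPKM, next 4.62) and Tbxas1 (3.08 RPKM, next 2.24). Knockout library 12 was above the other 7 in Ovgp1 (191 RPKM, next 44.1) and Rabggta (4.86 RPKM, next 4.13). Knockout library 13 was above the other 7 in Cxcl15 (0.952 RPKM, next 0.515). Knockout library 13 was below the other 7 in Stag2 (23.9 RPKM, next 25.9). Knockout library 5 was above the other 7 in C3 (105 RPKM, next 48.5) and Chac1 (2.5 RPKM, next 1.68). Knockout library 5 was below the other 7 in Krt10 (1.7 RPKM, next 2.81) and Rnf43 (1.97 RPKM, next 2.94). Knockout library 9 was above the other 7 in Col1a1 (673 RPKM, next 452), Igf1 (72.8 RPKM, next 48.7), Krt5 (50.5 RPKM, next 10.1) and Sprr1a (21.0 RPKM, next 9.11). Knockout library 9 was below the other 7 in Etv5 (5.76 RPKM, next 7.05). Epithelial genes made up much of the set of floxed library 1a, and secreted and immune genes much of that of knockout library 10; what sets these libraries apart was not tested.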

How the results depend on the processing

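Each alternative was compared with 3516 called genes, 1878 higher and 1638 lower. A minimum of 5 RPKM, which tests 10689 genes, left 2293 (1169 higher), the vehicle-only batch alone 1178 (722 higher, 456 lower), from 8 libraries, and weights per library gave 6500 (3324 higher, 3176 lower); the cause of the last was not tested. Leaving out 1 library gave 3101 to 3676 calls, 1645 to 1918 higher and 1398 to 1758 lower. The other settings kept these counts within 1.5 times, except that the replicate block lowered the number of lower genes by more. Replicate numbers 4, 10 and 12 occur in both genotypes but in different batches, and the deviations of same-numbered libraries had correlations of 0.184, -0.133 and 0.201, so the numbers were not taken as pairs; with the replicate block 2435 genes were called, 1043 of them lower, and 53.6% of the calls were shared. The 53 genes whose effect differed between batches became 32 with a pseudocount of 1, 25 at 5 RPKM and 2 on the RPKM scale. Esr1 differed by 4.832 RPKM in the mixed batch alone (exact permutation p = 0.0286) and by 0.5705 over both. No named gene that was called over both batches changed sign under these settings; Npas2, not called over both, was called in opposite directions in the 2 batches. Depth limits genes under about 1 RPKM most, and intervals from counts cannot be given.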

Other observations

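Genes of the circadian clock differed between the batches in a way that the comparison over both did not show. Of 19 tested, 2 fell over both batches and none rose (10.5% and 0%), and none was called without the 3 marker-bearing libraries. The mixed batch alone called 4 higher and 11 lower, whereas the vehicle-only batch called none higher and 1 lower. Arntl, the core activator of the clock, had a log2 fold change of 1.81 in the mixed batch (limma adjusted p = 2.83e-05) and of -0.43 in the vehicle-only batch, and its partner Npas2 went from 0.86 to -1.13. Genes that the clock's activators drive were lower in the mixed batch, Per3 by a log2 fold change of -1.77, Dbp of -1.19, Per2 of -1.18 and Tef of -1.11, and stood at 0.40, 0.32, -0.22 and 0.24 in the vehicle-only batch. The difference between the batches passed for Npas2 on the log2 and RPKM scales (limma adjusted p = 0.00177 and 0.00619), for Arntl on the log2 scale alone (limma adjusted p = 0.0427), and not for Per3, Dbp, Per2 or Tef on either. The labels used here give no hour of collection, and its part in these values was not tested.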
